A study of Mus musculus with 12 samples.

Results

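Footprints of translating ribosomes in KPC cells after 21 h of cisplatin (Cis) were compared with those in PBS-treated cells, gene by gene, over 4 of the 12 libraries of the series. These are the 2 ribosome profiling libraries labelled Cis 21 h and the 2 ribosome profiling libraries labelled as cells without treatment, which the study calls PBS. KPC is a mouse pancreatic ductal adenocarcinoma (PDAC) line. It was made from mice in which Pdx1-Cre, a Cre active in the pancreas, switches on the allele Trp53 LSL-R172H, so that every library, controls included, comes from cells with mutant p53. Treated cells received 20 μM Cis for 21 h, cycloheximide was present in the lysis buffer of all cells, and the duration of the PBS treatment (6 or 21 h in the methods) is not labelled. The other libraries are 2 of footprints after 6 h of Cis and 6 of RNA-seq from the same 3 treatments. The 6 h footprint libraries share the filter, the scaling and the estimate of spread with the 4 compared. Apart from that, the other libraries enter below as values set beside the comparison. Nothing in the labels says that the libraries of a group came from separate cultures. The p-values thus measure the spread between libraries of a group, the 6 h pair included, which may be technical.

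Cisplatin links neighbouring purines of DNA, and such adducts stall both DNA and RNA polymerases. Cells answer with checkpoint kinases and p53, which restrain the cell cycle and prepare for death, and with stress kinases that feed AP-1 transcription factors. In the integrated stress response (ISR), kinases phosphorylate the initiation factor eIF2, most translation is lowered, and mRNAs such as Atf4 are translated more. The unfolded protein response (UPR) starts from the endoplasmic reticulum (ER) membrane sensors IRE1α, PERK and ATF6 and restores folding capacity. A ribosome footprint is the stretch of mRNA that a ribosome protects from RNase, and footprints over a coding sequence measure how many ribosomes translate it, whatever the cause (more mRNA or more ribosomes per mRNA).

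The PBS libraries held 5204127 and 4661014 footprints and the 21 h libraries 3686336 and 3492790, on 11795 to 12177 transcripts each, with 1 representative transcript per gene. Values are RPKM (footprints scaled to coding length and to library size), so that each gene is measured relative to the others of its library and a change in the total amount of translation is not seen. Differences are given as the mean of the 21 h libraries minus the mean of the PBS libraries on the scale of log2(RPKM + 0.5), with SE, n = 2 per group, after division by scaling factors of 0.975 to 1.02. A gene was called higher or lower, and is said to have risen or fallen, where limma's adjusted p was below 0.05. Where a list of genes is counted, numbers in square brackets are the ranges of its rises and of its falls when 1 PBS or 21 h library was left out, followed by each library (PBS 1 is PBS replicate 1) without which a count of 3 or more moved by over 1.5 times. Counts of every list stand against 18.9% rises and 20.2% falls over all genes tested. A list near these shares is not read as a result about its members. The libraries of a group correlated at r = 0.989 (PBS) and 0.985 (21 h) across genes. Of the defining markers of ductal epithelium and carcinoma lines all 12 had footprints in PBS 1 and 11 in each other library. Their sum was 13339 and 12458 RPKM with PBS and 9211 and 9398 RPKM at 21 h. Epcam (0.287 to 1.83 RPKM), Muc1 (0.287 to 0.711 RPKM) and Cldn4 (0 to 0.305 RPKM) were near 0 in all 4. Of the 10 tested, 6 fell and 1 rose (Sox9, by 1.07). Fibroblast markers summed to 3.79 to 9.62 RPKM, leukocyte markers to 2.07 and 2.35 RPKM with PBS against 10.4 and 3.76 RPKM at 21 h, and Ptprc, which defines leukocytes, reached at most 0.0991 RPKM. The part of such other cells in the results was not tested, and in bulk libraries fewer cells of a type and less RNA per cell cannot be told apart.

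Of 10390 genes tested, 1959 (18.9%) rose and 2100 (20.2%) fell. Among the genes that rose, 464 did so by less than 0.5 on the log2 scale, 1036 by 0.5 to 1, 410 by 1 to 2 and 49 by more than 2. Among those that fell, 362 lay within 0.5, 847 between 0.5 and 1, 674 between 1 and 2, and 217 beyond 2, so that large falls outnumbered large rises. With a change of more than 2-fold asked for in addition, 459 genes (4.42%) were higher and 891 (8.58%) lower. In all 4059 called genes (39.1%) the PBS range and the 21 h range did not overlap. With 2 libraries a group this separation nearly follows from a call and adds no support to it. Genes not called can also have ranges apart, as Asns and Ern1 below, and their share was not counted. The genes that rose held 16.6% of footprints with PBS and 25.8% at 21 h, and those that fell went from 32.1% to 21.3%. The median over all genes tested was 0.01. Of the 5 genes with the highest RPKM in PBS, S100a6, a calcium-binding protein, fell by 0.39, while Gm9844 (-0.41), Rpl37 (-0.18), Rpl41 (0.18) and Eef1a1 (0.22) were not called. With voom on the recovered reads Gm9844 (limma adjusted p = 0.00104), Rpl37 (0.0351) and Eef1a1 (0.00467) passed, as did Gm9844 without 21 h replicate 1 (0.00304). Eef1a1 also passed without PBS replicate 2 (limma adjusted p = 0.00962), under quantile normalization and without scaling.

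**Figure D1:**
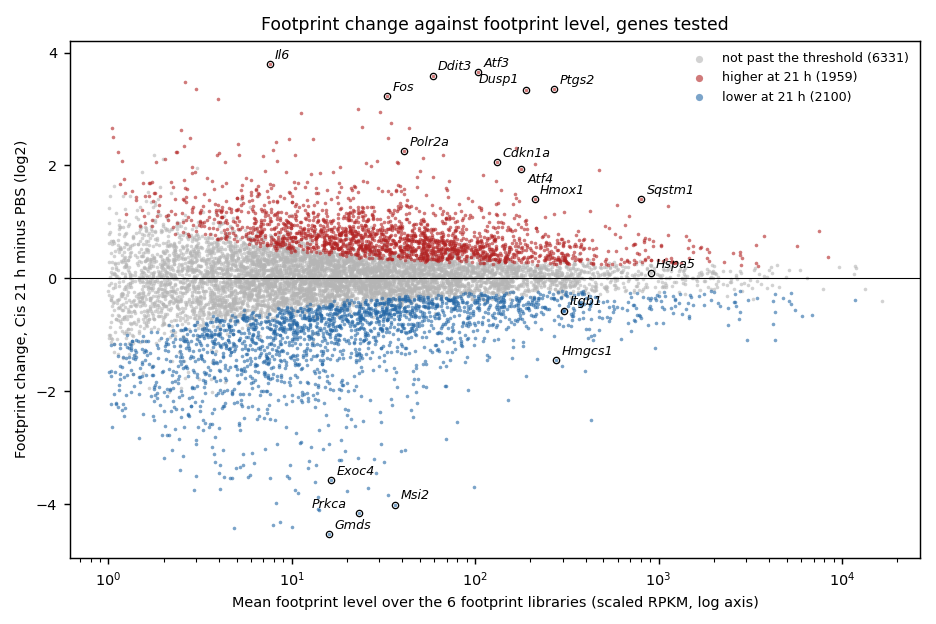
Change of footprints of each of the 10390 tested genes (log2, 21 h minus PBS; vertical axis) against its mean scaled RPKM over the 6 footprint libraries (log axis); the 1959 genes called higher, the 2100 called lower and the 6331 not called are coloured apart. The lowest change is -4.53 (Gmds) and the highest 3.79 (Il6), and called genes occur at low and high levels.

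The rises in the ISR list were led by the transcription factors Atf3 and Ddit3. Among 23 tested genes of the ISR, 13 rose and 2 fell [11 to 12 and 1 to 2], with a median of 0.66. ATF3, an ATF/CREB repressor and activator induced by stress, had 19.5 and 19.4 RPKM with PBS and 243 and 269 RPKM at 21 h. CHOP (Ddit3), the C/EBP factor that promotes death under long stress, had 11.8 and 11.1 RPKM with PBS and 153 and 140.3 RPKM at 21 h. The 21 h libraries were thus 13.2-fold and 12.8-fold above PBS, with differences of 3.65 ± 0.11 and 3.59 ± 0.12 and an adjusted p of 1.11e-06 for both, in limma. ATF4 itself, the factor whose upstream reading frames let it be translated when eIF2 is phosphorylated, went from 83 and 93.9 RPKM to 373 and 325 RPKM. Its footprints rose by 1.94 ± 0.11 and its RNA by 0.99, and the difference between those changes, 0.95, passed the test of footprints against RNA (limma adjusted p = 0.0362). Footprints do not measure phosphorylation of eIF2, which the paper reports as largely intact after chemotherapy, and its part in these rises was not tested. GADD34 (Ppp1r15a), which brings a phosphatase to eIF2 and so ends the ISR, rose from 2.63 and 3.27 RPKM to 26.7 and 26 RPKM. TRIB3, a pseudokinase that restrains ATF4, rose from 22.3 and 24.8 RPKM to 66.9 and 57.4 RPKM, and CHAC1, which degrades glutathione, from 11.5 and 14.8 RPKM to 38.1 and 35.5 RPKM. The stress cytokine Gdf15 had 3 and 2 footprints with PBS and 34 and 26 at 21 h, a ratio of 16.5 (95% interval 6.69 to 52.6, counting error only). NDRG1, a growth and stress gene placed in this list, went the other way, from 624 and 498 RPKM to 412 and 308 RPKM (-0.68).

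Genes under ATF4 that supply amino acids had a median near that of all genes. Of 20 tested transporters and synthesis enzymes 6 rose and 3 fell [4 to 6 and 1 to 3, with falls 1 without PBS 1], with a median of 0.03. GPT2, a mitochondrial alanine transaminase, rose from 15.3 and 15.5 RPKM to 36.2 and 37.5 RPKM, and the one-carbon enzyme Mthfd2 from 88.8 and 95.8 RPKM to 140.3 and 171 RPKM. Asparagine synthetase (Asns) had 153 and 137 RPKM with PBS and 169 and 174 RPKM at 21 h. Its ranges did not overlap, yet its difference of 0.21 ± 0.08 did not pass the test (limma adjusted p = 0.0868). The cystine carrier Slc7a11 had 89.2 and 72.5 RPKM with PBS and 56.6 and 65.6 RPKM at 21 h, a fall of 1.32-fold (limma adjusted p = 0.0234) that was lost without PBS replicate 1 (0.134) or 21 h replicate 1 (0.115). Mthfd1l, whose gene spans 194 kb, fell from 65.3 and 64.5 RPKM to 15.3 and 15.2 RPKM. Cytosolic aminoacyl-tRNA synthetases, which charge tRNAs, moved both ways, with 9 of 23 higher and 4 lower [6 to 8 and 2, with falls 2 without PBS 1, 2 without PBS 2, 2 without 21 h 1, 2 without 21 h 2]. The alanine enzyme (Aars) rose from 101 and 100.5 RPKM to 198 and 217 RPKM, and the aspartate enzyme (Dars) fell from 177 and 188 RPKM to 104 and 101 RPKM.

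Several genes of these lists hold, upstream of their start, the C/EBP-ATF element to which ATF4 binds with a C/EBP partner (TGATGNAA, searched on both strands from 250 bases before to 50 after the start in RefSeq promoters, GRCm38.p6). The sites of 4 of them are printed on the strand of the gene with the element in capitals, which reads TTGCATCA where it lies on the opposite strand. They show that matches of the element stand before genes that rose and genes that did not. The variable base N is C in Atf3, Chac1 and Slc7a11 and A in Asns.
Atf3, chr1:191183426-191183453, first capital 110 bases before the start, rose: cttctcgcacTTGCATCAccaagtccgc
Chac1, chr2:119351039-119351066, 193 bases before the start, rose: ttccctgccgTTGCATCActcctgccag
Asns, chr6:7693215-7693242, 23 bases before the start, not called: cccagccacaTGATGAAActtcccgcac
Slc7a11, chr3:50443662-50443689, 66 bases before the start, fell: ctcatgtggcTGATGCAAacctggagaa
The element was present in 5 of 18 ISR promoters (27.8%), 5 of 17 of the amino acid list (29.4%) and 5 of 16 of the synthetases (31.2%), against 3.97% of all 32851 promoters and 2.68% of those of the 8423 tested genes matched. Of the 13 matched ISR genes that rose, 4 held it. The cAMP response element TGACGTCA, to which ATF/CREB dimers bind, stood 12 bases before the start of Ppp1r15a and in no other ISR promoter, and in 1 of 20 promoters of the immediate early genes, against 1.79% of all promoters and 3.64% of those of tested genes.
Ppp1r15a, chr7:45526263-45526290: gcctctccggTGACGTCAgcacagcgcc
No site printed here overlapped a match of another searched motif, and a match is a description of letters, not a test of binding.

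Among the sensors and chaperones of the ER, falls outnumbered rises. Of 9 tested UPR sensors and factors 1 rose and 3 fell [1 and 2 to 3], with a median of -0.57. IRE1α (Ern1), the sensor that splices Xbp1, had 10.4 and 8.34 RPKM with PBS and 6.48 and 7.03 RPKM at 21 h. PERK (Eif2ak3), which phosphorylates eIF2, had 4.37 and 4.24 RPKM with PBS and 3.33 and 2.23 RPKM at 21 h. Neither passed the test (-0.47 ± 0.20, limma adjusted p = 0.0956, and -0.60 ± 0.27, 0.105), although in both genes every 21 h library was below every PBS library. Both were called lower with voom on the recovered reads (0.0283 for Ern1 and 0.0320 for Eif2ak3). ATF6, the sensor that is cut in the Golgi to a transcription factor, fell from 27.5 and 28.5 RPKM to 12.7 and 10.6 RPKM (-1.27 ± 0.14, limma adjusted p = 0.000324). Xbp1 itself had 28.8 and 28.9 RPKM with PBS and 24.9 and 29.1 RPKM at 21 h, with overlapping groups. The related factor CREB3 was the member that rose, from 24 and 29.1 RPKM to 40.6 and 45 RPKM.

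Among 26 ER chaperones and disulfide isomerases 3 rose and 16 fell [1 to 3 and 7 to 14, with rises 1 without PBS 2, 1 without 21 h 1 and falls 7 without PBS 2, 9 without 21 h 2], with a median of -0.32 against 0.01 over all genes. BiP (Hspa5), the major Hsp70 of the ER and a classical UPR target, had 879.5 and 923 RPKM with PBS and 957 and 1006 RPKM at 21 h. Its difference of 0.09 ± 0.08 did not pass (limma adjusted p = 0.393), and its RNA rose by 0.63. The test of footprints against RNA passed for 0 of the 25 members of this list that it covered. GRP94 (Hsp90b1) fell from 539 and 642 RPKM to 328 and 273 RPKM, and the disulfide isomerase Pdia6 from 514 and 600.2 RPKM to 305 and 257 RPKM. Both fell by about as much (-1.01 ± 0.12 and -1.02 ± 0.11). SIL1, which exchanges the nucleotide of BiP and lies in a gene of 233 kb, fell the most in the list, from 37.5 and 41.7 RPKM to 4.08 and 3.9 RPKM. Torsin (Tor1a) rose from 24.4 and 22.3 RPKM to 42.4 and 45.9 RPKM. In the degradation pathway for misfolded ER proteins 5 of 24 genes rose and 3 fell [4 to 6 and 1 to 3, with falls 1 without PBS 2]. These shares, 20.8% and 12.5%, stand against 18.9% and 20.2% of all genes. The rises include the ubiquitin ligase Syvn1, from 11.5 and 9 RPKM to 19.2 and 24.2 RPKM, and its partner Herpud1, from 89.9 and 76.1 RPKM to 128 and 139 RPKM. The 3 falls were Sel1l, Os9 and Erlec1. Over the alternatives their changes were -0.55 to -0.31, -0.66 to -0.41 and -0.71 to -0.58, and the call of Sel1l was lost in 7 alternatives. Of 36 translocon, signal recognition and oligosaccharyltransferase genes 5 rose and 10 fell [3 to 4 and 7 to 8, with rises 3 without PBS 2, 3 without 21 h 1], with Srp14 at 543 and 542 RPKM with PBS and 802 and 813 RPKM at 21 h and the catalytic subunit Stt3b at 62.1 and 60.8 RPKM with PBS and 41.6 and 37.3 RPKM at 21 h, the first called higher and the second lower.

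Cytosolic chaperone genes rose in part. In the heat shock list 11 of 23 genes rose and 4 fell [9 to 10 and 2 to 4, with falls 2 without PBS 2, 2 without 21 h 2], and among the CCT chaperonin and prefoldin genes 2 of 14 rose and 1 fell [0 to 2 and 1]. ZFAND2A, a zinc finger protein induced by arsenite and heat, rose from 7.87 and 5.86 RPKM to 46 and 48.6 RPKM (2.68 ± 0.20). The small chaperone Hspb1 rose from 13.5 and 15.7 RPKM to 34.6 and 38.8 RPKM, and Sqstm1, the receptor that carries ubiquitylated proteins to autophagosomes, from 451 and 505 RPKM to 1263 and 1322 RPKM. The mitochondrial co-chaperonin Hspe1 fell from 926 and 975 RPKM to 728 and 631 RPKM. The heat shock element TTCNNGAA, which reads the same on both strands, was found in 7 of 18 promoters of the list (38.9%), 3 of them among the 10 matched genes that rose, against 8.52% of all promoters. It is shown for the gene of the list with the largest rise.
Zfand2a, chr5:139484670-139484697, 196 bases before the start: tgcctgactgTTCTAGAAaataggcggg

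**Figure D2:**
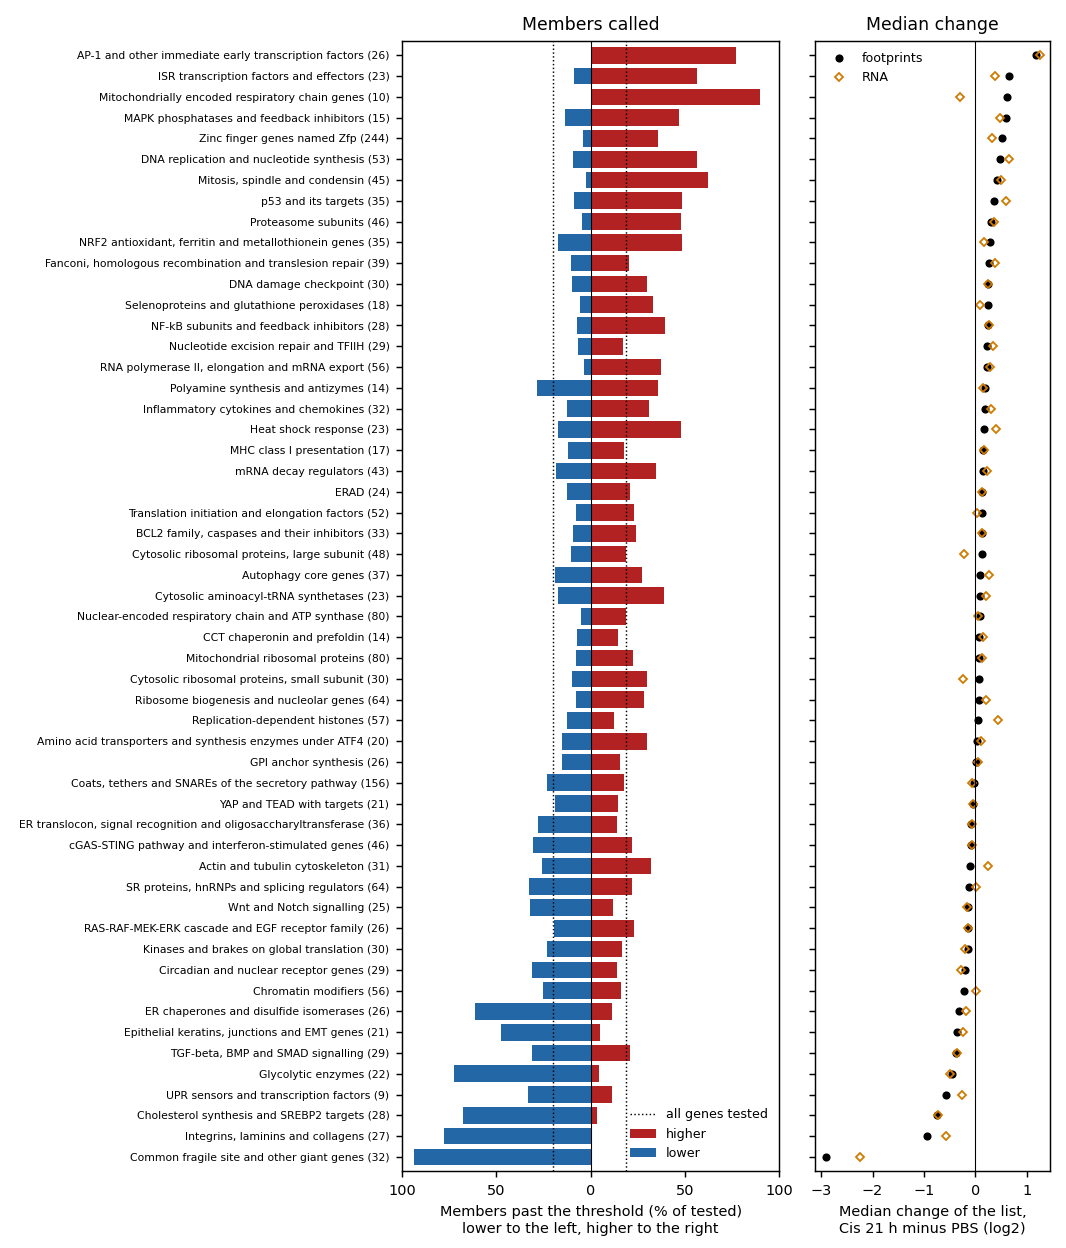
For each of 54 gene lists, the percentage of its tested genes called higher or lower in footprints at 21 h (bars; dotted lines mark 18.9% and 20.2% over all genes) and the median log2 change of footprints and of RNA (points). The immediate early list has the highest median of footprints (1.17) and the giant genes the lowest (-2.92).

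Immediate early genes, which are switched on within minutes of growth or stress signals, were high after 21 h. In this list 20 of 26 tested genes rose and 0 fell [19 to 21 and 0] (limma, with 0 falls at an unadjusted p under 0.05 and 0 in voom), with a median of 1.17 and 14 rises above 2-fold. The AP-1 subunit Fos had 5.39 and 9.6 RPKM with PBS and 75.9 and 71.6 RPKM at 21 h. Its partner Jun had 11.3 and 12.2 RPKM with PBS and 73.4 and 67.1 RPKM at 21 h. EGR1, a zinc finger factor downstream of ERK, had 8.89 and 15 RPKM with PBS and 85.7 and 79.5 RPKM at 21 h. The PBS libraries of Fos and of Egr1 differed from each other, and every 21 h library of the 3 genes stood far above both. Jun rose by 2.49 ± 0.13, Fos by 3.23 ± 0.24 and the survival gene Ier3 from 96.5 and 92.5 RPKM to 392 and 405 RPKM. Myc, the growth factor response gene that drives proliferation, had 135 and 141 RPKM with PBS and 129.7 and 136 RPKM at 21 h, and this difference did not pass (-0.09 ± 0.11, limma adjusted p = 0.522).

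The phosphatases and adaptors that switch off MAP kinases are themselves early targets of these kinases. Of 15 tested, 7 rose and 2 fell [6 to 7 and 1 to 2]. DUSP1, which inactivates JNK and p38, rose 10.4-fold, from 38.9 and 45.6 RPKM to 431 and 449 RPKM (3.33 ± 0.11, limma adjusted p = 1.11e-06). DUSP6, specific for ERK, rose from 74.5 and 64.2 RPKM to 222 and 252 RPKM, and the receptor pathway inhibitor Spry4 from 2.78 and 2.62 RPKM to 10.2 and 11.1 RPKM. SPRED2, of the same family of inhibitors, fell from 15.1 and 15.7 RPKM to 7.86 and 6.99 RPKM. Among 26 genes of the RAS-ERK cascade and the EGF receptor family 6 rose and 5 fell [4 to 6 and 5 to 6], with a median of -0.14. These shares, 23.1% and 19.2%, lie near the 18.9% and 20.2% of all genes. The ligands of the EGF receptor named here rose, and genes of a list were named in part for the size of their rise. Epiregulin (Ereg) went from 64.1 and 71.1 RPKM to 325 and 368 RPKM, amphiregulin (Areg) from 94.3 and 112 RPKM to 297 and 273 RPKM and heparin-binding EGF (Hbegf) from 47.7 and 58.8 RPKM to 144 and 127 RPKM. Epigen (Epgn) had no footprint with PBS and 2.97 and 1.88 RPKM at 21 h, at least 1.82-fold higher than the level of 3 reads. Epgn passed the filter on level only through Cis libraries, so that its rise adds no support to those of the other ligands. Their receptor Egfr, a gene of 162 kb, fell from 5.61 and 6.86 RPKM to 2.17 and 1.74 RPKM (-1.49 ± 0.25). The RAS inhibitor Nf1 fell from 8.63 and 8.26 RPKM to 3.37 and 3.22 RPKM.

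Among genes under p53, rises outnumbered falls in a cell line whose Trp53 allele is R172H, a mutant of the DNA-binding domain. Of 35 tested p53 targets, p53 included, 17 rose and 3 fell [12 to 14 and 0 to 5, with falls 0 without PBS 1, 1 without PBS 2, 5 without 21 h 1, 0 without 21 h 2], with a median of 0.36. The CDK inhibitor p21 (Cdkn1a) had 56 and 54.9 RPKM with PBS and 260.5 and 217 RPKM at 21 h (2.06 ± 0.11, limma adjusted p = 8.34e-06). The antiproliferative gene Btg2 had 6.08 and 5.43 RPKM with PBS and 41.8 and 61.6 RPKM at 21 h. GADD45A, which binds PCNA and p21, had 13.2 and 15.2 RPKM with PBS and 97.5 and 92.5 RPKM at 21 h. The groups were apart in all 3, with 4.31-fold, 8.98-fold and 6.7-fold higher means. These genes are known to be induced with p53 and without it. The part of p53 in their rises was not tested, and the genotype as given does not say whether a wild-type allele remains. The kinase Plk3 rose from 2.47 and 3.31 RPKM to 16 and 16.2 RPKM and the BH3 protein Noxa (Pmaip1) from 21.8 and 23.6 RPKM to 79.9 and 61.2 RPKM. Trp53 rose from 198 and 168 RPKM to 281 and 279.9 RPKM, and MDM2, the ligase that degrades p53 and a target of it, had 25.1 and 28.7 RPKM with PBS and 37.5 and 25.8 RPKM at 21 h, with overlapping groups and no call (0.17 ± 0.18, limma adjusted p = 0.476).

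In the machinery of apoptosis 8 of 33 genes rose and 3 fell [4 to 10 and 2 to 3, with rises 5 without PBS 2, 4 without 21 h 2]. The pro-survival proteins did not move together. BCL-XL (Bcl2l1) fell from 115 and 101 RPKM to 54.7 and 59.8 RPKM, Bcl2 fell from 9.5 and 9.09 RPKM to 3.45 and 2.43 RPKM, and survivin (Birc5) rose from 285 and 309.6 RPKM to 469.6 and 511 RPKM. Mcl1, short-lived and pro-survival, had 122 and 118 RPKM with PBS and 152 and 158 RPKM at 21 h (0.34 ± 0.08, limma adjusted p = 0.0131, and 0.0525 without 21 h replicate 2). The pro-death BH3 protein BIM (Bcl2l11) rose from 18 and 16.8 RPKM to 39.2 and 40.9 RPKM.

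Cisplatin adducts are cut out by nucleotide excision repair, and interstrand links are handled by the Fanconi pathway and homologous recombination. Among checkpoint genes 9 of 30 rose and 3 fell [9 to 10 and 2 to 4], in excision repair 5 of 29 rose and 2 fell [3 to 5 and 1 to 2, with rises 3 without PBS 1], and in the Fanconi and recombination list 8 of 39 rose and 4 fell [6 to 8 and 2 to 4, with falls 2 without PBS 1, 2 without PBS 2]. The shares of rises in excision repair (17.2%) and in the Fanconi list (20.5%) lie near the 18.9% of all genes. Atr, the kinase that senses stalled forks, fell from 5.26 and 4.98 RPKM to 1.54 and 2.13 RPKM. RPA2, a subunit of the single-strand binding protein, rose from 51.2 and 52.7 RPKM to 121 and 124 RPKM, and the histone variant H2ax from 144 and 134 RPKM to 211 and 259 RPKM. The helicase Ercc3 of TFIIH rose from 60.0 and 64.2 RPKM to 98.5 and 94.9 RPKM, whereas MNAT1, which joins the kinase of TFIIH to its core, fell from 61.8 and 56.9 RPKM to 30.4 and 34.9 RPKM, so that subunits of 1 complex went in opposite directions. Brca1 rose from 7.46 and 7.3 RPKM to 14 and 16.6 RPKM and the nuclease subunit Eme1 from 21.8 and 24.7 RPKM to 60.3 and 52.7 RPKM. FANCL, the ubiquitin ligase of the Fanconi core, fell from 16.1 and 14.9 RPKM to 6.27 and 5.34 RPKM.

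Among genes of S phase and mitosis, rises outnumbered falls. Of 53 tested genes of DNA replication and nucleotide synthesis 30 rose and 5 fell [25 to 30 and 4 to 5], with a median of 0.49. Of 45 genes of mitosis 28 rose and 1 fell [20 to 23 and 1], with a median of 0.42. The clamp Pcna had 1400.1 and 1326 RPKM with PBS and 2073 and 2031 RPKM at 21 h. The flap endonuclease Fen1 had 91 and 101 RPKM with PBS and 287 and 267 RPKM at 21 h. CDC6, which loads the replicative helicase, had 55.7 and 52.5 RPKM with PBS and 147 and 154 RPKM at 21 h. In all 3 the 21 h libraries stood above both PBS libraries. The catalytic subunit of polymerase α, Pola1, fell from 11.1 and 12.4 RPKM to 3.89 and 3.06 RPKM, as did the large primase subunit Prim2 (-0.89), both in long genes (328 and 216 kb). In mitosis, Aurora B (Aurkb) rose from 93 and 84.8 RPKM to 187 and 211 RPKM, the proliferation marker Mki67 from 8.29 and 7.23 RPKM to 16.5 and 18.9 RPKM and Cdk1 from 287 and 303 RPKM to 445 and 459.5 RPKM. ECT2, which places the cleavage furrow, was the gene that fell, from 113 and 116 RPKM to 83.1 and 89.9 RPKM. The replication-dependent histone genes, whose copies are nearly identical so that their reads may be shared among them, gave 7 rises and 7 falls of 57 [3 to 9 and 4 to 8, with rises 4 without PBS 2, 3 without 21 h 2 and falls 4 without PBS 1]. H3c4 fell from 613 and 568 RPKM to 305 and 343 RPKM while its RNA differed by 0.00.
Promoters of late cell cycle genes often carry the cell cycle homology region TTTGAA, which the DREAM complex binds in resting cells. It was found in 27 of 37 mitosis promoters (73.0%), 17 of them among 22 matched genes that rose, against 17.9% of all promoters and 14.3% of those of tested genes, and is shown for a pair that rose.
Mki67, chr7:135716480-135716505, 116 bases before the start: agcgccagaaTTTGAAccgccgtttt
Cdk1, chr10:69352968-69352993, 71 bases before the start: gattggctccTTTGAAcgtctacgtg

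The study asked how chemotherapy raises inflammatory signalling through STING in these cells. Of 32 tested cytokines and chemokines 10 rose and 4 fell [7 to 10 and 3 to 6], with a median of 0.18. Cyclooxygenase 2 (Ptgs2), which makes prostaglandins, had 62.9 and 64.6 RPKM with PBS and 640.5 and 704 RPKM at 21 h (3.35 ± 0.09, limma adjusted p = 9.39e-07). Interleukin 6 (Il6) had 1.82 and 0.339 RPKM with PBS and 16.3 and 22.6 RPKM at 21 h. The chemokine Ccl20 had 14.4 and 4.91 RPKM with PBS and 76.2 and 65.5 RPKM at 21 h. The PBS values of Il6 rested on 6 and 1 reads and those of Ccl20 on 23 and 7, so that the size of these rises was less certain than that of Ptgs2 (SE 0.45 and 0.40 against 0.09). The interferon-induced chemokine Cxcl10 had 239.9 and 212 RPKM with PBS and 241 and 287 RPKM at 21 h and Ccl5 had 97.1 and 122 RPKM with PBS and 149 and 117 RPKM at 21 h. Neither was called (0.18 ± 0.10, limma adjusted p = 0.194, and 0.25 ± 0.15, 0.239), apart from Cxcl10 without 21 h replicate 1 (0.0451). Leukocyte markers, whose part was not tested, summed higher at 21 h as given above, with Ptprc near 0. The neutrophil chemokine Cxcl5 fell from 607 and 526 RPKM to 432 and 439 RPKM. Among NF-kB subunits and their inhibitors 11 of 28 rose and 2 fell [7 to 9 and 1 to 3, with rises 7 without PBS 2]. The feedback inhibitor A20 (Tnfaip3) rose from 7.52 and 8.21 RPKM to 17.4 and 15.8 RPKM, the subunit Rel from 8.71 and 9.12 RPKM to 20.5 and 22.2 RPKM and Rela from 33 and 29.96 RPKM to 49.9 and 55.6 RPKM. NFKB1, the precursor of p50 and a gene of 107 kb, fell from 29.5 and 31 RPKM to 16.2 and 12.9 RPKM. The NF-kB site GGGACTTTC stood in 2 of 23 promoters of the NF-kB list and in 1 of 22 of the cytokines, against 0.353% of all promoters and 0.475% of those of tested genes.

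In the cGAS-STING pathway with interferon-stimulated genes 10 of 46 rose and 14 fell [4 to 6 and 8 to 10, with rises 5 without PBS 1, 5 without PBS 2, 6 without 21 h 1, 4 without 21 h 2 and falls 9 without PBS 1, 8 without PBS 2], with a median of -0.09. The DNA sensor Cgas rose from 6.7 and 8.75 RPKM to 22.1 and 24.8 RPKM (1.52 ± 0.19, limma adjusted p = 0.000485). STING (Sting1), the ER membrane adaptor that receives its signal, had 2.71 and 2.65 RPKM with PBS and 5.5 and 5.55 RPKM at 21 h. Its ranges lay apart and it was called (0.89 ± 0.23, limma adjusted p = 0.0161), but not without PBS replicate 1 (0.0722), PBS replicate 2 (0.0746) or 21 h replicate 2 (0.0539), at levels of a few RPKM. The kinase Tbk1 had 15.9 and 21.7 RPKM with PBS and 25.1 and 24.3 RPKM at 21 h and was not called (limma adjusted p = 0.124), except without PBS replicate 2 (0.0373) and with voom on the recovered reads (0.0286). The transcription factor Irf1 rose from 56.1 and 62.4 RPKM to 110.2 and 110.2 RPKM. The interferon target Isg15 had 1317 and 1294 RPKM with PBS and 1278 and 1232 RPKM at 21 h, with no call. For MHC class I presentation 3 of 17 genes rose and 2 fell [2 to 3 and 1 to 3], and B2m, the light chain, had 9170.2 and 8411 RPKM with PBS and 10574 and 10130.5 RPKM at 21 h (limma adjusted p = 0.0595, 0.0406 without PBS replicate 1, 0.0366 without scaling and 0.0118 with voom on the recovered reads).

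**Figure D3:**
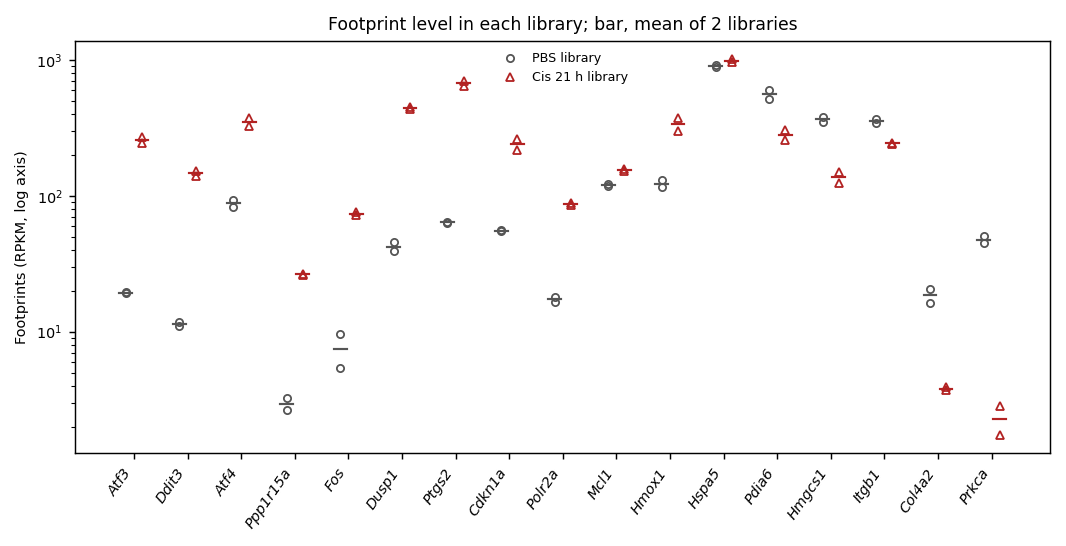
RPKM of footprints of 17 genes in each PBS and 21 h library (points, log axis; the bar is the mean of 2). The 21 h means stand 13.2-fold (Atf3), 12.8-fold (Ddit3), 10.4-fold (Dusp1) and 10.5-fold (Ptgs2) higher, Hspa5 lies slightly higher without being called, and Prkca drops from 50.3 and 44.8 RPKM to 1.75 and 2.84 RPKM.

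The proteasome degrades ubiquitylated proteins. Of its 46 tested subunits 22 were higher and 2 lower [20 to 21 and 0 to 2], with a median of 0.30, all rises below 2-fold. The core subunit Psma1 rose from 331 and 276 RPKM to 503 and 496 RPKM and the lid subunit Psmd3 from 104 and 100.0 RPKM to 169 and 164 RPKM. Autophagy genes were split, with 10 of 37 higher and 7 lower [7 to 9 and 6 to 8]. The ubiquitin-like proteins that coat autophagosomes, Map1lc3a and Gabarapl1, rose from 20.6 and 20.1 RPKM to 51.6 and 74.9 RPKM and from 107 and 92.3 RPKM to 259.7 and 271 RPKM. The enzyme that activates them, ATG7, fell 13.8-fold, from 9.59 and 9.46 RPKM to 0.732 and 0.644 RPKM, in a gene of 217 kb. Uvrag, a regulator of the autophagy lipid kinase, fell by 1.73. Atg10, of 289 kb, had 15.8 and 6.44 RPKM with PBS and no footprint at 21 h, at least 8.41-fold lower against the level of 3 reads.

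NRF2 turns on genes against oxidants, and its list gave 17 rises and 6 falls of 35 genes [13 to 16 and 5 to 7], with a median of 0.28. Heme oxygenase (Hmox1) rose from 131 and 115 RPKM to 374 and 298 RPKM, sulfiredoxin (Srxn1) from 20.2 and 21.7 RPKM to 61.3 and 62.2 RPKM and Osgin1 from 4.69 and 3.59 RPKM to 18.9 and 15 RPKM. Malic enzyme (Me1) fell from 535 and 464 RPKM to 295 and 257 RPKM and metallothionein Mt1 from 1214 and 1302 RPKM to 969 and 1004 RPKM. The antioxidant response element TGACNNNGC stood in 9 of 28 promoters of the list (32.1%), 7 of them among the 15 matched genes that rose, against 12.4% of all promoters and 1429 of those of the 8423 tested genes matched. Selenoproteins rose in 6 and fell in 1 of 18 [3 to 7 and 0 to 1, with rises 3 without PBS 2].

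Among genes of cholesterol synthesis and of glycolysis, falls outnumbered rises. Of 28 genes of cholesterol synthesis and its regulator SREBP2, 19 fell and 1 rose [0 to 1 and 18 to 19], with a median of -0.75, against 20.2% falls over all genes. HMG-CoA synthase (Hmgcs1), the entry enzyme, had 379.5 and 350.1 RPKM with PBS and 149 and 125 RPKM at 21 h (-1.45 ± 0.10, limma adjusted p = 2.78e-05). The epoxidase Sqle had 159 and 145 RPKM with PBS and 62 and 58.4 RPKM at 21 h. Groups were apart for both, with means 2.67-fold and 2.52-fold lower. Squalene synthase (Fdft1) fell from 137 and 115 RPKM to 48.2 and 43.6 RPKM, the late enzyme Nsdhl from 55.6 and 49 RPKM to 19.2 and 14.2 RPKM and the LDL receptor from 47.5 and 50.4 RPKM to 27 and 26.3 RPKM. INSIG1, which holds SREBP in the ER, had 38.1 and 31.2 RPKM with PBS and 32.1 and 32.1 RPKM at 21 h with overlapping groups. The sterol regulatory element TCACCCCAC was found in 1 of 20 promoters of the list, against 0.551% of all and 0.712% of those of tested genes.
Hmgcs1, chr13:119690204-119690232, 137 bases before the start: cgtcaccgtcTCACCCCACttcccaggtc
Glycolytic enzymes fell in 16 of 22 cases and rose in 1 [1 and 13 to 15], with a median of -0.46. Lactate dehydrogenase (Ldha), among the most translated genes here, went from 6871 and 7143 RPKM to 4668 and 4442 RPKM. The hexokinases Hk1 and Hk2 fell from 110.4 and 128 RPKM to 63.4 and 53.5 RPKM and from 87.9 and 91.2 RPKM to 62.8 and 62.5 RPKM. PFKFB3, which makes the activator of phosphofructokinase, was the gene that rose, from 9.81 and 9.92 RPKM to 16.1 and 19.3 RPKM. In polyamine metabolism 5 of 14 genes rose and 4 fell [4 to 5 and 2 to 4, with falls 2 without PBS 2]. Ornithine decarboxylase (Odc1), which starts synthesis, rose from 114 and 94 RPKM to 185 and 199.6 RPKM, its inhibitor antizyme 2 (Oaz2) from 48.1 and 42.8 RPKM to 94.7 and 95.4 RPKM, and SAT1, which acetylates polyamines for export, 4.69-fold, from 31.3 and 25.7 RPKM to 133 and 135 RPKM.

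RNA polymerase II stalls at cisplatin adducts. Of 56 genes of the polymerase, elongation and mRNA export 21 rose and 2 fell [16 to 21 and 0 to 1], with a median of 0.23. The largest subunit, Polr2a, which is ubiquitylated and degraded when the enzyme stalls at damage, had 18 and 16.7 RPKM with PBS and 85.4 and 88.1 RPKM at 21 h (2.26 ± 0.11, limma adjusted p = 7.95e-06; RNA 2.22). HEXIM1, which holds the elongation kinase P-TEFb inactive, had 32.7 and 37 RPKM with PBS and 127 and 113 RPKM at 21 h. Cyclin T1 (Ccnt1), a subunit of P-TEFb, had 15.7 and 14.4 RPKM with PBS and 37.5 and 37.6 RPKM at 21 h. A subunit of P-TEFb and its inhibitor thus both rose. The mRNA export factor Nxt1 rose from 57.2 and 55.2 RPKM to 114 and 128 RPKM. In mRNA decay 15 of 43 genes rose and 8 fell [12 to 14 and 6 to 7], among them the AU-rich element binding proteins Zfp36, from 4.42 and 4.04 RPKM to 21.8 and 21.2 RPKM, and Zfp36l1 (1.54), while the decay nuclease Smg6 fell by 1.86. Of 64 splicing regulators 14 rose and 21 fell [12 to 14 and 17 to 18], with a median of -0.13. HNRNPA3 fell from 5381 and 6061 RPKM to 2841 and 2682 RPKM and the splicing factor MBNL1 from 254 and 223 RPKM to 85 and 132 RPKM, whose 21 h libraries differed from each other. The kinase CLK1, which phosphorylates SR proteins, rose from 29.97 and 25.2 RPKM to 88.2 and 55.9 RPKM.

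Translation factors gave 12 rises and 4 falls of 52 [8 to 15 and 2 to 5, with falls 2 without PBS 2, 2 without 21 h 2]. The β subunit of eIF2, Eif2s2, rose from 1097 and 1075 RPKM to 1775 and 1976 RPKM, and Eif2b1, a subunit of its exchange factor, from 152 and 146 RPKM to 240.4 and 248 RPKM. Among kinases and brakes on translation 5 of 30 rose and 7 fell [3 to 4 and 6 to 7, with rises 3 without PBS 1, 3 without PBS 2]. These shares, 16.7% and 23.3%, lie near the 18.9% and 20.2% of all genes. The mTOR inhibitor Deptor fell from 67 and 65.9 RPKM to 15.7 and 21 RPKM, the mTORC1 scaffold Rptor, a gene of 297 kb, from 9.5 and 10.4 RPKM to 2.3 and 3 RPKM, and the GCN2 inhibitor Impact rose (0.95). Of the ribosome biogenesis genes 18 of 64 rose and 5 fell [14 to 19 and 3 to 8, with falls 8 without PBS 1, 3 without PBS 2, 3 without 21 h 1], Utp4 from 121 and 106 RPKM to 212 and 218 RPKM and nucleophosmin (Npm1) from 4532 and 4577 RPKM to 3532 and 3512 RPKM.

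Ribosomal protein genes moved both ways, with 9 higher and 5 lower of 48 [4 to 11 and 5 to 6, with rises 5 without PBS 1, 4 without 21 h 2] in the large subunit and 9 higher and 3 lower of 30 [4 to 9 and 1 to 5, with rises 5 without PBS 2, 4 without 21 h 2 and falls 5 without PBS 1, 1 without PBS 2] in the small one. Pseudogene copies of these genes make their counts uncertain. Rpl12, of the stalk base, fell from 848 and 846 RPKM to 396 and 431 RPKM with its RNA at -0.05, a difference of -1.02 (limma adjusted p = 0.00312). Rplp1, of the stalk itself, fell from 1128 and 1246 RPKM to 713 and 686 RPKM, a difference from its RNA change of -0.78. The paralog Rpl22l1 fell from 499 and 535 RPKM to 157 and 183 RPKM and its RNA by 1.63. Rps26 rose from 812 and 769.9 RPKM to 1166 and 1402 RPKM, a difference from its RNA change of 0.90. Mitochondrial ribosomal proteins rose in 18 and fell in 6 of 80 [11 to 18 and 4 to 7, with rises 11 without PBS 2, 11 without 21 h 2], with Mrpl49 up by 1.09 and Mrps28 down from 74.7 and 66.1 RPKM to 19.4 and 21.5 RPKM.

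Genes encoded in mitochondrial DNA went up in footprints and down in RNA. Of 10 tested, 9 rose in footprints and 0 fell [7 to 9 and 0] (limma, with 0 falls at an unadjusted p under 0.05 and 0 in voom), with a median of 0.62, while 8 fell and 0 rose in RNA, with a median of -0.30. ATP synthase subunit 6 (mt-Atp6) had 6557 and 4494 RPKM with PBS and 8824 and 11249 RPKM at 21 h. Cytochrome oxidase subunit 2 (mt-Co2) had 3736 and 2724 RPKM with PBS and 5781 and 5260.3 RPKM at 21 h. The complex I subunit mt-Nd4l had 477 and 389.7 RPKM with PBS and 762 and 875 RPKM at 21 h. In each the PBS libraries differed from one another and both 21 h libraries were above both. The difference between footprint and RNA changes passed for 7 of the 10 (1.58 for mt-Nd4l, limma adjusted p = 0.00089; 0.79 for mt-Co1, 0.0362). The share of all footprints on mitochondrial genes was 1.89% and 1.46% with PBS and 2.64% and 2.70% at 21 h. Of 80 nuclear genes of the same complexes 15 rose and 4 fell [13 to 18 and 2 to 4, with falls 2 without 21 h 1], Ndufb1 from 532 and 444 RPKM to 1003 and 911 RPKM and the assembly subunit Ndufs4, in a gene of 100.3 kb, from 419.8 and 441 RPKM to 161 and 141 RPKM.

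Among adhesion and matrix genes, falls outnumbered rises. Of 27 integrins, laminins and collagens 21 fell and 0 rose [0 and 17 to 21] (limma, with 1 rises at an unadjusted p under 0.05 and 2 in voom), with a median of -0.93. The common chain Itgb1 fell from 342 and 364 RPKM to 239.8 and 245 RPKM, the laminin receptor chain Itga6 from 74.2 and 71.8 RPKM to 38.9 and 39 RPKM, and basement membrane collagens Col4a2 from 16.3 and 20.7 RPKM to 3.71 and 3.91 RPKM and Col18a1 from 30.3 and 34.3 RPKM to 7.65 and 8.5 RPKM. Of 21 keratins, junction and EMT genes 10 fell and 1 rose [1 to 2 and 8 to 9]. The ductal keratins Krt8 and Krt19 fell from 4819 and 4679 RPKM to 3214 and 3261 RPKM and from 3082 and 2683 RPKM to 1716 and 1608 RPKM. Krt18, the partner of Krt8, had 1719.7 and 1569.6 RPKM with PBS and 1668 and 1856 RPKM at 21 h with overlapping groups, and Krt20 was the gene that rose, from 681 and 657 RPKM to 1164 and 1098 RPKM. E-cadherin (Cdh1) fell from 138 and 147 RPKM to 88.3 and 102 RPKM, N-cadherin (Cdh2), of 220.4 kb, from 31.7 and 30.3 RPKM to 7.59 and 7.58 RPKM, and vimentin (Vim) from 3614 and 3606 RPKM to 2931 and 2867 RPKM. In the cytoskeleton 10 of 31 genes rose and 8 fell [7 to 9 and 5 to 6, with falls 5 without PBS 1, 5 without PBS 2, 5 without 21 h 2], with the tubulins Tubb3, from 2.85 and 5.56 RPKM to 25.7 and 24.4 RPKM, and Tubb2a, from 35.4 and 38.1 RPKM to 103 and 129 RPKM, higher and Actb, from 5506 and 4966 RPKM to 3939 and 4187 RPKM, lower, in families whose copies share sequence.

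YAP targets gave 3 rises and 4 falls of 21 [2 to 3 and 2 to 5, with falls 2 without PBS 2], the TGF-β list 6 and 9 of 29 [5 to 6 and 9], and Wnt and Notch genes 3 and 8 of 25 [1 to 3 and 5 to 9, with rises 1 without PBS 1 and falls 5 without PBS 2]. The matrix protein Ccn1 rose from 37 and 46.6 RPKM to 84 and 74.8 RPKM and the Notch target Hes1 from 27 and 24.3 RPKM to 74.4 and 90.0 RPKM. The Hippo kinase Stk3, of 280.4 kb, fell from 38.4 and 39.1 RPKM to 6.37 and 5.76 RPKM, and LTBP1, which holds latent TGF-β in the matrix and spans 387 kb, from 40.5 and 44.2 RPKM to 6.6 and 7.58 RPKM. The Wnt effector Tcf7l2 fell from 22.6 and 17.9 RPKM to 6.42 and 3.15 RPKM. Among 156 coats, tethers and SNAREs of the secretory pathway 28 rose and 36 fell [17 to 25 and 25 to 35, with rises 17 without PBS 2], against 18.9% and 20.2% of all genes, and GPI anchor synthesis had 4 of each among 26 [1 to 4 and 2 to 4, with rises 2 without PBS 1, 2 without PBS 2, 1 without 21 h 2 and falls 2 without PBS 2]. Chromatin modifiers rose in 9 and fell in 14 of 56 [3 to 5 and 7 to 11, with rises 3 without PBS 1, 5 without PBS 2, 4 without 21 h 1, 4 without 21 h 2 and falls 7 without PBS 2]. The deacetylase Sirt1 rose from 3.82 and 3.98 RPKM to 14.7 and 13.1 RPKM and ARID1B, a SWI/SNF subunit of 353 kb, fell from 6.33 and 5.98 RPKM to 0.748 and 0.457 RPKM. Circadian and nuclear receptor genes rose in 4 and fell in 9 of 29 [0 to 3 and 5 to 9, with rises 2 without PBS 1, 0 without PBS 2, 2 without 21 h 2 and falls 5 without PBS 2], with Arntl, the clock activator, down by 1.63. Of 244 genes named Zfp, most of them zinc finger transcription factors, 87 rose and 10 fell [50 to 70 and 6 to 11, with rises 50 without PBS 1, 57 without 21 h 1 and falls 6 without PBS 2], with a median of 0.51.

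Genes of long genomic span fell more often and further than short ones. Genomic span, from the first to the last base of the RefSeq gene on GRCm38.p6, had a median of 22.5 kb over the genes tested, 13.2 kb over those that rose and 78.4 kb over those that fell. The 2603 genes below 10 kb had a median change of 0.20, with 28.2% higher and 7.99% lower. The 3621 genes of 10 to 30 kb had 0.17, and the 3022 genes of 30 to 100 kb had -0.17. For the 977 genes of 100 to 300 kb the median was -1.002, with 0.307% higher and 73.0% lower, and for the 150 genes above 300 kb it was -2.32, with 1.33% higher and 87.3% lower. The share of falls was thus highest among the longest genes. Of the 891 falls above 2-fold, 483 were in genes of 100 to 300 kb and 125 in longer ones. At 6 h, in comparison with the same PBS libraries, 109 genes were higher (1.05%) and 103 lower (0.991%), 2.04% in all, and the medians of the 5 span classes were 0.11, 0.07, -0.09, -0.42 and -0.78. RNA at 21 h gave 0.14, 0.17, -0.08, -0.79 and -2.02. Longer genes also had lower levels with PBS, at a median of 25.0 RPKM below 10 kb and 7.18 RPKM above 300 kb. Coding length went with a smaller range of medians, from 0.16 below 0.5 kb to -0.38 above 4 kb.

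**Figure D4:**
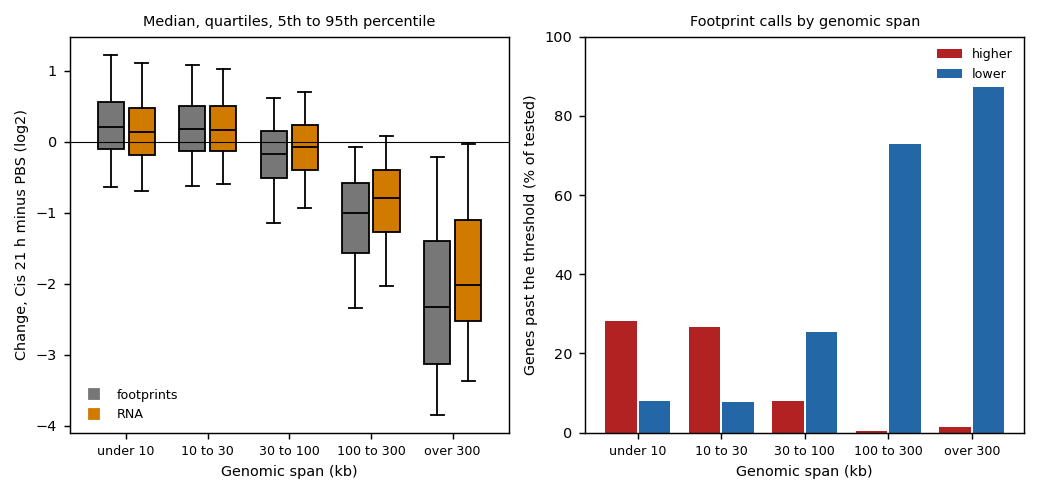
Left, change at 21 h (log2, 21 h minus PBS) of footprints and RNA by genomic span of the gene (boxes, median and quartiles; whiskers, 5th to 95th percentile); right, the percentage of genes called higher and lower in footprints in each span class. The median of footprints drops from 0.20 below 10 kb to -2.32 above 300 kb.

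A list of 32 tested giant genes, many of them at common fragile sites, where replication stress breaks chromosomes, held 30 falls and 0 rises [0 and 28 to 31] (limma, with 0 rises at an unadjusted p under 0.05 and 0 in voom), with a median of -2.92 in footprints and -2.26 in RNA. This list was chosen with earlier results of these data known. Its share of falls, 93.8%, stands against 87.3% of all 150 tested genes above 300 kb, so that it is not particular to the listed genes. GMDS, which makes GDP-fucose, lies in 519 kb and had 27.7 and 26.9 RPKM with PBS and 0.486 and 1.03 RPKM at 21 h. Protein kinase C α (Prkca), of 411 kb, had 50.3 and 44.8 RPKM with PBS and 1.75 and 2.84 RPKM at 21 h. The RNA-binding protein MSI2, of 379 kb, had 64.4 and 71.5 RPKM with PBS and 3.14 and 4.69 RPKM at 21 h. These falls, -4.53 ± 0.24, -4.16 ± 0.21 and -4.01 ± 0.18, are among the 10 largest of all genes, and no library overlapped between groups. Msra, a methionine sulfoxide reductase of 333 kb, had 75 and 70 footprints with PBS and 2 in each 21 h library, a ratio of 26.4 (95% interval 10.1 to 98.1, counting error only). The exocyst subunits Exoc4 (725 kb) and Exoc6b (452 kb), which tether secretory vesicles at the plasma membrane, fell from 26.6 and 27.4 RPKM to 1.85 and 1.86 RPKM and from 16.4 and 19.1 RPKM to 1.12 and 1.18 RPKM. TRAPPC9, which tethers vesicles at the Golgi, fell from 12.4 and 12.4 RPKM to 1.03 and 0.335 RPKM. BABAM2, a subunit of the BRCA1-A complex, fell from 59.5 and 59.6 RPKM to 5.6 and 2.5 RPKM (-3.85 ± 0.28) and its RNA by 4.40. WWOX, a gene of 913 kb at a common fragile site, fell less, from 8.82 and 4.49 RPKM to 1.75 and 2.77 RPKM (-1.36 ± 0.33, limma adjusted p = 0.0114), and was not called without PBS replicate 1 (0.0927) or 21 h replicate 1 (0.0546). Above 300 kb, Pde4b (520 kb, 0.78), a phosphodiesterase with short isoforms, and Frmd4b (331 kb, 0.70) rose.

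RNA-seq of the same treatments gave fewer calls, with 1094 of 9459 genes (11.6%) higher and 1154 (12.2%) lower at 21 h. Of the 1861 genes with higher footprints that were also tested in RNA, 1692 had an RNA difference above 0, and 776 were called higher and 17 lower. Of 1915 genes with lower footprints, 925 were called lower in RNA and 4 higher. The change of footprints differed from that of RNA in 38 of 9312 genes (0.408%), 24 upward (0.258%) and 14 downward (0.15%), at RNA libraries of 2090245 to 2901692 reads in which the 10 most abundant transcripts held 53.5% to 56.4% of reads. The 21 genes called in opposite directions were 4 with lower footprints (H2ac11, H2bc11, Riok3 and Rbm39) and 17 with higher footprints. Of these 17, 8 were mitochondrially encoded, and Rpl21, Rps19, Rps21 and the elongation factor Eef2 were among the cytosolic translation genes. The test of footprints against RNA did not pass for Eef2, H2ac11 and Riok3 (limma adjusted p = 0.0673 each), Rps19 (0.0638) or Rps21 (0.098). Nor did it pass for Tmem258 (0.106), Plp2 (0.106) or mt-Nd1 (0.125), while it passed for the rest of the 21. Rbm39, a splicing factor, fell from 129 and 146 RPKM to 107 and 91.5 RPKM while its RNA rose by 0.65 (limma adjusted p = 0.00499). The footprint call of Rbm39 was lost without PBS replicate 2 (limma adjusted p = 0.055) or 21 h replicate 2 (0.0503). That of Eef2 was lost in 9 of the 16 alternatives without a fold limit, among them those without PBS replicate 1 (0.185) or 21 h replicate 2 (0.161). Rps19 lost it in 9, Rps21 in 8, H2ac11, H2bc11 and Riok3 in 3 each and Rpl21 in 1. It was kept in all 16 by 7 of the 21 genes, which are Smyd5 and 6 mitochondrially encoded genes (mt-Atp6, mt-Co1, mt-Co2, mt-Nd2, mt-Nd4l and mt-Nd5).

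**Figure D5:**
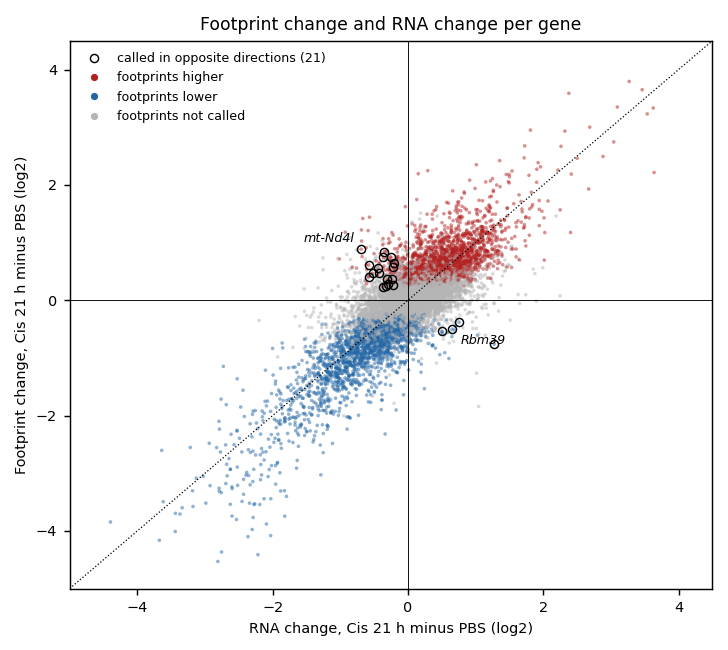
Change of footprints (vertical axis) against change of RNA (horizontal axis) at 21 h for genes tested in both (log2, 21 h minus PBS); the dotted line marks equal change and circles mark the 21 genes called in opposite directions. Most called genes lie on the same side of 0 in both assays, and the circled mitochondrial genes lie in the upper left.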

How the data were processed

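KPC cells were treated with PBS or with 20 μM Cis, and ribosome profiling and RNA-seq were each performed on 2 libraries per treatment, as the sample labels give them. RPKM were deposited by the authors for every library, unpooled, with a single transcript standing for each gene, over its coding sequence for footprints and over its whole length for RNA-seq. The submitters' processing notes name STAR, cutadapt and GRCm39, with no versions, and the counting tool is not given in the sources used here. RPKM times length came to whole numbers of reads (within 0.01) for 100% of values, from which reads and depth were recovered. Transcripts that a file does not list were set to 0.

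RPKM were divided by median-of-ratios factors, transcripts averaging 1 scaled RPKM or more over the 6 footprint libraries were kept (10390 of the 13355 listed in the 4 libraries), and limma 3.58.1 (R 4.3.3) was run on log2(RPKM + 0.5) with a mean-variance trend in eBayes and with PBS, 6 h and 21 h in a single model. Adding 0.5 lowers the change of genes near that level. Two-sided p-values were adjusted by Benjamini-Hochberg over all genes tested and called below 0.05. An exact permutation test of 2 libraries against 2 cannot go below 0.333. RNA was fitted in the same way, and the difference of footprint and RNA changes as an interaction over all 12 libraries. Intervals (95%) and the floor of 3 reads cover counting error only, as no molecular identifiers were used.

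Genes named in the text are the 10 largest rises and falls with at least 20 mean reads in 1 group, the 5 highest in PBS, genes that the paper names and, in each list, core members, the member of highest level and up to 3 largest rises and falls past the threshold. The rises and falls are among called genes whose ranges do not overlap. Genes called in opposite directions were named after their values were seen. Some genes, and an allele that the cells carry, are not reported here. The members and the 54 gene lists were chosen with earlier results of these data known. Genomic span came from RefSeq genes on GRCm38.p6 (15726 transcripts matched, 99.5%) and was used as a length only. Promoters came from RefSeq (GRCm38.p6). The test was checked on simulated data. Alternatives were other pseudocounts, filters and scalings, eBayes without a trend, 2 groups only, the replicate number as a block, each library left out, other thresholds and limma's voom on the recovered reads. Python 3.11.15, pandas 2.3.3, numpy 2.4.6, scipy 1.17.1 and matplotlib 3.10.9 were used.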

Additional observations from a re-analysis of the deposited data

Results flagged for a closer look

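Footprints at 21 h were compared directly with those at 6 h, in the same limma model. They differed in 1554 genes with higher and 1634 with lower values at 21 h (15.0% and 15.7% of 10390), whereas 109 genes (1.05%) were higher and 103 (0.991%) lower at 6 h than with PBS. The 6 h and 21 h comparisons share the PBS libraries, and the differences between them were taken between the 6 h and 21 h libraries themselves. A total of 8 genes were called in opposite directions against PBS at the 2 times, and were picked for that after their values were seen, so that these values are a description. Their calls at 6 h lay near the threshold, with limma adjusted p from 0.0270 (Cenpw) to 0.0383 (Ndufa6). No alternatives were run for the 6 h comparison, so the stability of those calls is not known.

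Of these, 4 were lower at 6 h and higher at 21 h. Cox17, a copper chaperone of cytochrome oxidase, had 12.2 and 10.2 RPKM with PBS, 4.51 and 4.70 RPKM at 6 h and 31.6 and 45.4 RPKM at 21 h, a difference between times of 2.89 on the log2 scale. Linker histone H1f3 went from 212 and 195 RPKM at 6 h to 450.1 and 428 RPKM at 21 h (1.09). The kinetochore protein Cenpw went from 403 and 386 to 682 and 726 RPKM (0.81). Eif2s1, the subunit of eIF2 that is phosphorylated in the ISR, went from 489 and 491 to 860.0 and 852 RPKM (0.78).

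The other 4 were higher at 6 h and lower at 21 h. Hnrnpab, an hnRNP, went from 6498 and 6825 RPKM at 6 h to 3562 and 3155 RPKM at 21 h, with 3755 and 4618 RPKM in PBS (-1.01). Spermidine synthase (Srm) went from 177 and 167 to 89.8 and 97.0 RPKM (-0.90). The complex I subunit Ndufa6 went from 463 and 469 to 281 and 294 RPKM (-0.72), and the prolyl isomerase Fkbp1a from 1325 and 1345 to 889 and 866 RPKM (-0.63). The call at 21 h against PBS was lost in 9 of the 16 alternatives without a fold limit for Hnrnpab and Cenpw, in 7 for Ndufa6 and Fkbp1a, in 5 for H1f3, in 3 for Srm, in 2 for Eif2s1 and in 0 for Cox17. Without PBS replicate 2, limma's adjusted p was 0.176 for Hnrnpab, 0.156 for Cenpw and 0.150 for H1f3, and without PBS replicate 1 it was 0.0505 for Eif2s1 and 0.109 for Ndufa6. Without 21 h replicate 1 it was 0.0636 for Srm and 0.0536 for Fkbp1a.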

How the results depend on the processing

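The number of genes with more footprints at 21 h was 1366 to 2489 under the alternatives without a fold limit, against 1959, and the number of genes with fewer footprints at 21 h was 1441 to 2509, against 2100. A fold limit of 2 left 459 and 891, since it removes the small changes by construction. Leaving out each library in turn gave 1366 to 1828 higher and 1441 to 1929 lower, the fewest without PBS replicate 2. Footprints with the same replicate number did not deviate together (r = 0.007 for PBS with 6 h, -0.011 for PBS with 21 h and -0.014 for 6 h with 21 h), so that the numbers were not used to pair libraries, and the fit with the replicate block called 1857 and 2012 genes. RPKM without scaling gave 2183 and 1971 calls, and voom (limma) on the reads recovered 2263 and 2386. Of 433 named genes tested, 365 were called, 0 changed direction under the alternatives, and 268 kept their call under every alternative without the fold limit. Apart from the fold limit, which removed 191 calls of named genes, these were lost most often without PBS replicate 2 (70), without 21 h replicate 2 (62) and in eBayes without the trend (49). With 3492790 to 5204127 footprints, a gene of low level rests on few reads, and its change is the least certain.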
